A study of Drosophila melanogaster with 18 samples.

Results

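In the deposited log2 signals, 99 of 16637 transcripts (0.595%) lay lower in every array with an insulator protein depleted than in both control arrays. They were chosen by a rule on these signals. The highest of the 16 knockdown arrays had to lie at least 0.7 log2 units below the lower control array. In addition, the mean of the CTCF, SuHw and double knockdown arrays had to lie within 1 log2 unit of the mean of the BEAF and CP190 single knockdown arrays. Since the rule used the knockdown arrays against control, their distance from control is given as a description, with no test. Only differences among the knockdown groups were tested.

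Insulators are DNA elements, with the proteins bound to them, that can keep an enhancer from acting on the wrong promoter and can separate chromatin of different states. In Drosophila, BEAF, CTCF and Su(Hw) (written SuHw here) bind DNA through their own motifs, and CP190 is recruited to many of the same sites as a shared cofactor. The transcripts described here are those whose level stood below control whichever of these proteins was depleted, and RNA levels alone do not tell a direct target from a downstream effect.

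The RNA was from Kc cells, which are cultured Drosophila melanogaster cells derived from embryos, and was read on 1-colour (Cy3) NimbleGen arrays. Double-stranded RNA was given to all cells, control included, on each of 3 days, with collection on day 4. The 9 groups had 2 arrays each, prepared in independent experiments per the series' design text. The control group is labelled wild type and received double-stranded RNA against beta-galactosidase, which targets none of the insulator proteins. The single knockdowns were against BEAF, CP190, CTCF or SuHw, and the double knockdowns against BEAF+CP190, BEAF+CTCF, CTCF+CP190 or SuHw+CP190. The labels spell the cell line in 1 way for control, BEAF and CP190 (here the first set, 6 arrays) and in another for the remaining 6 groups (the second set, 12 arrays).

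Knockdown cells of the second set have no control of their own set, so for them the distance from control cannot be told apart from a difference between the sets. All 8 knockdown groups were set against the same 2 control arrays, so a transcript that was high in those 2 arrays alone and one that was low in every knockdown look the same. Turned the other way, the same rule found 10 transcripts higher in every knockdown. Replicate arrays of a group correlated at 0.9981 to 0.9994 across all transcripts. The levels of the depleted proteins' own transcripts were not analysed here, because the identifiers of the table were not paired with those genes. None of the 99 identifiers matched a gene symbol in the given RefSeq gene table, so members are named by FlyBase transcript identifier and no gene function is given for them. For the same reason the hemocyte and other cell type markers were not analysed here.

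The 99 transcripts were of middling abundance in control cells. Their mean log2 control signal ran from 5.25 to 12.49 with a median of 8.12, and their rank among all transcripts ran from the 22.9th to the 85.4th percentile with a median at the 42.3rd. In control, 35 of the 99 lay above the median of all transcripts. The lower quartile of all signals was 5.43, and 34 of the 99 had at least 1 knockdown group mean under it, 14 of them in all 8 knockdown groups. The table carries no background measure, so for those 34 a low signal cannot be separated from background and a fold may be understated.

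Cells of the second set lay further below control than BEAF or CP190 cells did. In BEAF cells the 99 had a median difference from control of -1.23 log2 units, a 2.34-fold lower signal, and in CP190 cells of -1.11, or 2.16-fold. The 6 groups of the second set had medians between -1.60 (BEAF+CP190) and -1.76 (BEAF+CTCF), or 3.02-fold to 3.38-fold lower. The median over all transcripts was between 0.0059 and 0.039 in each of the 8 comparisons. Since whole cell populations were measured, fewer cells with a transcript and less of it per cell cannot be told apart.

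At least 2-fold below control were 77 of the 99 in BEAF cells, where 1.79% of all transcripts were, and 65 in CP190 cells, where 1.29% were. In the second set the counts were 93 in CTCF cells (5.26% of all transcripts) and 95 in SuHw cells (5.82%). In the doubles they were 94 in BEAF+CP190 (5.29%), 94 in BEAF+CTCF (5.59%), 96 in CTCF+CP190 (5.15%) and 92 in SuHw+CP190 (5.09%). At least 4-fold below control were 2 in BEAF cells, 7 in CP190 cells and between 23 (CTCF) and 32 (BEAF+CP190) in groups of the second set. The share of all transcripts at least 4-fold below control was not computed, so these 4-fold counts cannot be read as particular to the members. All counts of this paragraph describe the choice of members, which used the same arrays.

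**Figure D1:**
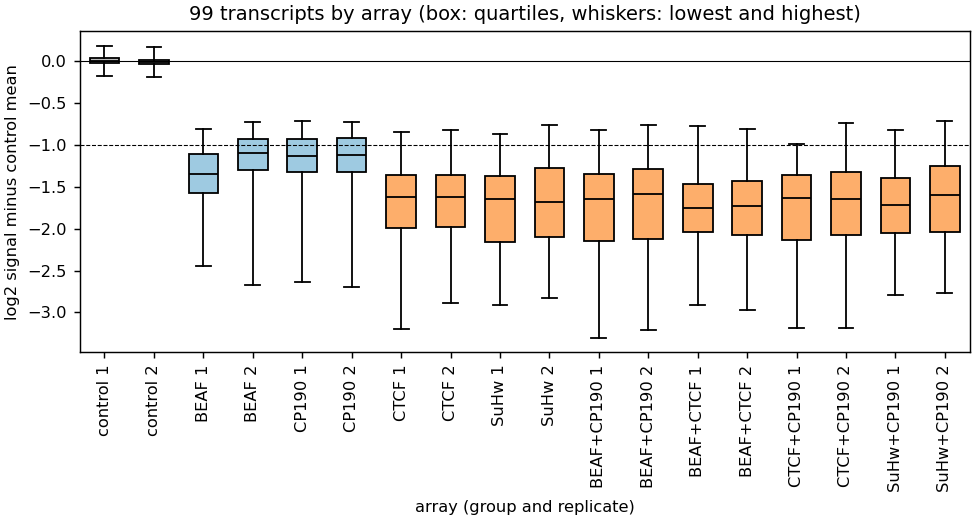
Log2 signal minus the control mean for the 99 transcripts in each of the 18 arrays, with boxes for the quartiles, a line for the median and whiskers to the lowest and highest transcript (grey control, blue BEAF and CP190, orange second set; the dashed line marks 2-fold below control). Medians lie between -1.09 and -1.35 in the 4 blue arrays and between -1.59 and -1.76 in the 12 orange arrays.

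The arrays that came closest to control were mostly those of BEAF and CP190. The least reduced group was CP190 for 44 of the 99 and BEAF for 28. The lowest group lay in the second set for 97, most often SuHw (25) and BEAF+CTCF (24). The second set mean was below that of the BEAF and CP190 single knockdowns for 92 of the 99 and above it for 7, with a median difference of -0.53. The condition on the sets kept this difference within 1 log2 unit in either direction. The gap was measured from control arrays of the first set, so a transcript lower throughout the second set met it more easily. The counts of this paragraph are therefore not independent of the rule, and the same counts over all transcripts were not made. Another 50 transcripts had the gap to control but a larger difference between the sets, and in all 50 the second set was the lower.

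**Figure D2:**
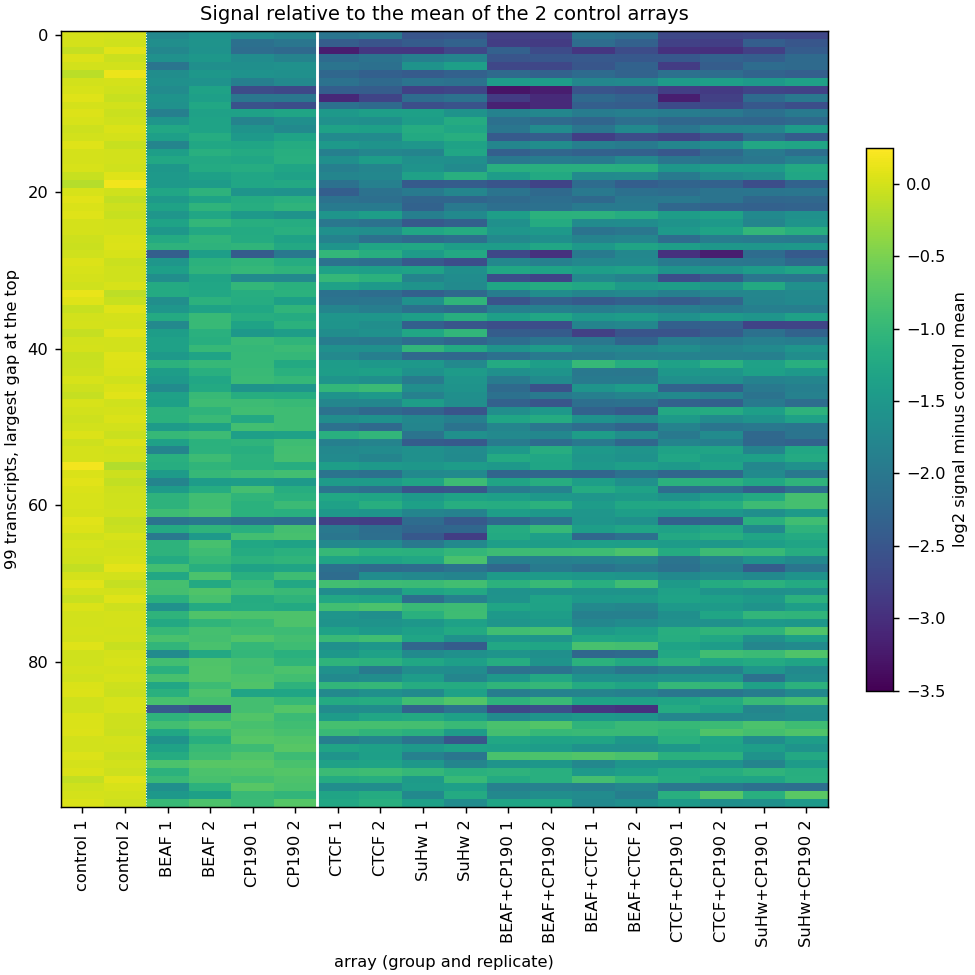
Log2 signal minus the control mean for each of the 99 transcripts (lines, ordered by the gap between the lower control array and the highest knockdown array) in each array (columns). The white line separates the first set from the second, which is darker (lower) for most transcripts, and single lines that break the pattern differ between knockdown groups.

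The gap between the lower control array and the highest knockdown array had a median of 0.89 log2 units. It was widest for FBtr0086813, at 1.59. Its log2 signals were 10.58 and 10.57 in control, 8.82 and 8.99 in BEAF, 8.89 and 8.78 in CP190, 8.54 and 8.61 in CTCF, and 8.07 and 8.09 in SuHw. In the doubles it had 7.78 and 7.80 in BEAF+CP190, 8.53 and 8.44 in BEAF+CTCF, 7.89 and 7.85 in CTCF+CP190, and 7.88 and 7.87 in SuHw+CP190. The 6 arrays of doubles with CP190 were the lowest of all, and no other array overlapped them.

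FBtr0081430 had the next widest gap, at 1.56. It had 9.07 and 9.04 in control, 7.41 and 7.47 in BEAF, 6.94 and 7.02 in CP190, 6.65 and 6.53 in CTCF, and 6.64 and 6.73 in SuHw. It had 6.24 and 6.20 in BEAF+CP190, 6.89 and 6.72 in BEAF+CTCF, 6.28 and 6.25 in CTCF+CP190, and 6.67 and 6.55 in SuHw+CP190. BEAF arrays stayed the closest to control, and the 4 arrays of BEAF+CP190 and CTCF+CP190 were the lowest.

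FBtr0071116 and FBtr0087434 had second-set signals under the lower quartile of the table. The CP190 arrays of FBtr0071116 and the BEAF and CP190 arrays of FBtr0087434 were under it too. The order among such low signals cannot be separated from background. FBtr0071116 had 7.23 and 7.38 in control, 5.54 and 5.71 in BEAF and 5.15 and 5.09 in CP190, and 4.11 to 4.96 over the 12 arrays of the second set. FBtr0087434 had 6.15 and 6.03 in control, 4.49 and 4.58 in BEAF and 4.42 and 4.27 in CP190, and 3.58 to 4.28 in the second set. For both, BEAF and CP190 arrays lay between control and most of the second set.

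FBtr0076793 had 9.09 in both control arrays, 7.04 and 7.46 in BEAF, 7.45 and 7.48 in CP190, 7.03 and 6.97 in CTCF, and 7.52 and 7.70 in SuHw. It had 6.38 in both arrays of BEAF+CP190, 6.59 and 6.76 in BEAF+CTCF, 6.25 and 6.70 in CTCF+CP190, and 6.91 and 6.88 in SuHw+CP190. Every double lay below every single knockdown for this transcript, and the SuHw arrays were the highest of the knockdown arrays.

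At the edge of the rule, FBtr0074690 was just inside with a gap of 0.701, between a lower control array at 6.11 and CP190 replicate 2 at 5.41. With quantile normalization its gap was 0.57. Just outside were FBtr0112760, with a gap of 0.697, and FBtr0081865, with 0.693, where BEAF replicate 2 was the highest knockdown array in both. FBtr0112690 just met the condition on the sets, at a difference of -0.995. FBtr0085867 just missed it, at -1.03, although its gap of 1.91 was wider than that of any member. BEAF replicate 2 was the highest knockdown array for 30 of the 99. Leaving out any 1 array gave between 94 and 136 members, with the most when control replicate 2 was left out.

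Levels across the knockdowns ranged from flat to strongly graded. Between the lowest and the highest of the 16 knockdown arrays the range had a median of 1.15 log2 units. The flattest was FBtr0071784, at 0.29. It had 11.08 and 11.01 in control and 9.99 to 10.28 over all 16 knockdown arrays. FBtr0071123, with a range of 0.39, had 10.49 in both control arrays and 9.29 to 9.68 over the knockdown arrays. For these 2 abundant transcripts the knockdown arrays of both sets overlapped.

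The widest ranges were those of FBtr0083330, at 2.21, and FBtr0085683, at 2.17. FBtr0083330 had 6.94 and 6.98 in control, 4.51 and 4.29 in BEAF, 6.08 and 6.20 in CP190, 5.27 and 5.29 in CTCF, and 4.66 and 4.88 in SuHw. It had 4.28 and 4.35 in BEAF+CP190, 4.05 and 3.99 in BEAF+CTCF, 5.77 and 5.63 in CTCF+CP190, and 5.16 and 5.31 in SuHw+CP190. The 6 arrays with BEAF depleted, alone or in a double, were the lowest 6 of the 18, with no overlap. They, and the CTCF, SuHw and SuHw+CP190 arrays, were under the lower quartile of the table. As above, the order among them cannot be separated from background.

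FBtr0085683 had 7.78 and 7.82 in control, 5.42 and 6.40 in BEAF, 5.40 and 5.80 in CP190, 6.78 and 6.65 in CTCF, and 6.36 and 6.57 in SuHw. It had 5.11 and 4.83 in BEAF+CP190, 5.84 and 6.03 in BEAF+CTCF, 4.84 and 4.61 in CTCF+CP190, and 5.63 and 5.36 in SuHw+CP190. Within the second set the 6 arrays with CP190 depleted lay below the 6 without. Those of BEAF+CP190 and CTCF+CP190 were under the lower quartile of the table. The BEAF replicates of FBtr0085683 lay far apart, and BEAF and CP190 arrays overlapped.

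**Figure D3:**
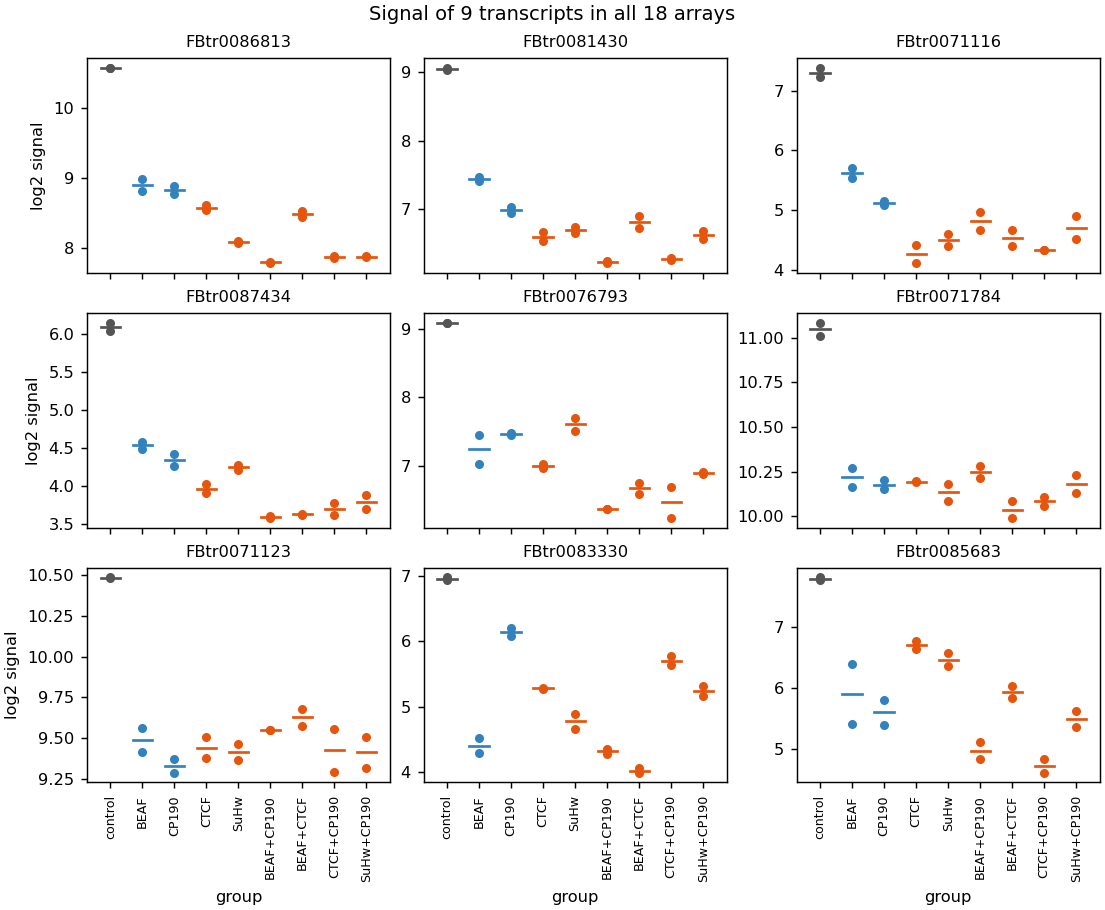
Log2 signal of 9 transcripts in every array (points are arrays, lines are group means of 2, vertical scales differ), with the 5 widest gaps to control first, then the 2 flattest and the 2 most graded across knockdowns. Control (grey) is the highest group in each panel, and FBtr0083330 is lowest in the 3 groups with BEAF depleted, all under the lower quartile of the table.

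To ask whether the second set was level, its 6 group means were compared in 1 fit over all transcripts. Of the 99, 73 differed among the 6 groups (limma F test with Benjamini-Hochberg adjustment over all transcripts, adjusted p under 0.05), where 48.6% of all transcripts did. The range of the 6 means had a median of 0.58 log2 units over the 99. The flat FBtr0071784 (adjusted p = 0.094) and FBtr0071123 (adjusted p = 0.24) did not pass, with ranges of 0.21 each, and FBtr0083330 passed at 8.2e-08 with a range of 1.68. Lower in every knockdown thus did not mean equally low. Members were more variable between replicates, with a median residual SD of 0.118 against 0.0876 over all transcripts.

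Pairs of groups within a set were then compared directly, which uses no control array. The rule's ceiling still limits how high a member could lie in any group. Of members named in these comparisons, FBtr0077395, FBtr0083330, FBtr0085683, FBtr0087483, FBtr0088330, FBtr0111137 and FBtr0299513 had a knockdown group mean under the lower quartile. Where a compared mean is under it, the signal cannot be separated from background and a fold may be understated. In BEAF against CP190 cells, 8 of the 99 were higher and 7 lower in BEAF, or 15.2%, where 10.8% of all transcripts were called (5.73% higher and 5.09% lower). The median difference was -0.046, and the unadjusted 95% interval of a single difference had a median half-width of 0.234. For a member with an interval of that width, a smaller difference would not be called. Calls use adjusted p and the SE of each transcript, so the half-width is not an exact limit of detection. FBtr0089747 was 2.21-fold higher in BEAF than in CP190 (log2 difference 1.15, SE 0.09, limma with Benjamini-Hochberg, adjusted p = 6.1e-06). FBtr0089746 was also 2.21-fold higher (limma adjusted p = 4.9e-06). FBtr0083330 had a difference of -1.74 (SE 0.092, limma adjusted p = 2e-07), and FBtr0079661 was at -0.86 (SE 0.14, limma adjusted p = 0.0017).

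The balance of those 15 calls hung on single arrays and on the scaling. Without BEAF replicate 2, 3 were higher and 24 lower, and without CP190 replicate 1, 3 and 5. With quantile normalization 4 were higher and 14 lower.

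CTCF and SuHw cells, the singles of the second set, differed in 35 of the 99. CTCF cells had 20 higher and 15 lower, or 35.4% called, where 16.8% of all transcripts were (9.12% higher and 7.63% lower). None differed by 2-fold. FBtr0087801 was at 10.49 and 10.60 in CTCF and at 9.85 and 9.70 in SuHw, 1.71-fold higher in CTCF (SE 0.08 on the log2 scale, limma with Benjamini-Hochberg, adjusted p = 1.9e-05). FBtr0089766 was 1.77-fold higher (limma adjusted p = 0.0048), and FBtr0077395 was at -0.76 (SE 0.14, limma adjusted p = 0.0019). FBtr0087483 was at -0.72 (limma adjusted p = 0.014) and was not called with only the 4 arrays compared (limma adjusted p = 0.083) or without CTCF replicate 1 (-0.71), CTCF replicate 2 (-0.74) or SuHw replicate 2 (-0.44). The count of 35 was 21 without either CTCF array and 22 without SuHw replicate 2.

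Adding a BEAF knockdown to CTCF raised 14 of the 99 and lowered a further 24, or 38.4%, where 21.9% of all transcripts were called (11.9% higher and 10% lower). FBtr0100012 went from 6.56 and 6.55 in CTCF to 7.81 and 7.74 in BEAF+CTCF, 2.33-fold higher (limma with Benjamini-Hochberg, adjusted p = 4e-06), and FBtr0299513 rose 1.78-fold (limma adjusted p = 0.00021). FBtr0083330 had a log2 difference of -1.26 (SE 0.092, limma adjusted p = 2.7e-06), with both groups under the lower quartile of the table. FBtr0114155 went from 10.10 and 10.15 to 8.97 and 9.24 and fell by 1.02 (limma adjusted p = 8e-05). The count of 38 was 22 without BEAF+CTCF replicate 1, 24 without replicate 2, and 21 and 19 without CTCF replicates 1 and 2.

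Adding a CP190 knockdown to CTCF raised 14 and lowered 29, or 43.4%, where 24.4% of all transcripts were called (12.6% higher and 11.8% lower). With limma and Benjamini-Hochberg adjustment, FBtr0085683 had a log2 difference of -1.99 (SE 0.24, adjusted p = 8.4e-05). FBtr0085682 went from 7.61 and 7.51 in CTCF to 6.01 and 6.20 in CTCF+CP190 and fell by 1.46 (limma adjusted p = 9.9e-07). FBtr0083405 went from 8.44 and 8.31 to 9.29 and 9.34, a 1.91-fold rise (limma adjusted p = 2.6e-05), and FBtr0079661 from 6.96 and 6.85 to 7.75 and 7.84, a 1.85-fold rise (limma adjusted p = 0.00058). The last 2 were thus closer to control with both proteins depleted than with CTCF alone. The count of 43 was 27 without CTCF+CP190 replicate 1, and 27 and 28 without CTCF replicates 1 and 2.

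Adding a CP190 knockdown to SuHw raised 28 and lowered 18, or 46.5%, where 28.4% of all transcripts were called (14.6% higher and 13.7% lower). FBtr0079661 went from 6.52 and 6.17 in SuHw to 7.69 and 7.78 in SuHw+CP190, rising 2.62-fold (limma, Benjamini-Hochberg adjusted p = 1.3e-05). FBtr0100012 went from 7.18 and 6.91 to 8.23 and 8.45, a 2.46-fold rise (limma adjusted p = 7.8e-07). FBtr0114129 went from 10.96 and 11.03 to 10.01 and 9.77 and fell by 1.10 (SE 0.097 in log2 units, limma adjusted p = 4.1e-06), and FBtr0114155 fell by 1.04 (limma adjusted p = 3.8e-05). Rises outnumbered falls here, while falls outnumbered rises on the CTCF background. Without SuHw+CP190 replicate 2 the rises and falls were 16 each, and with quantile normalization 25 each.

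**Figure D4:**
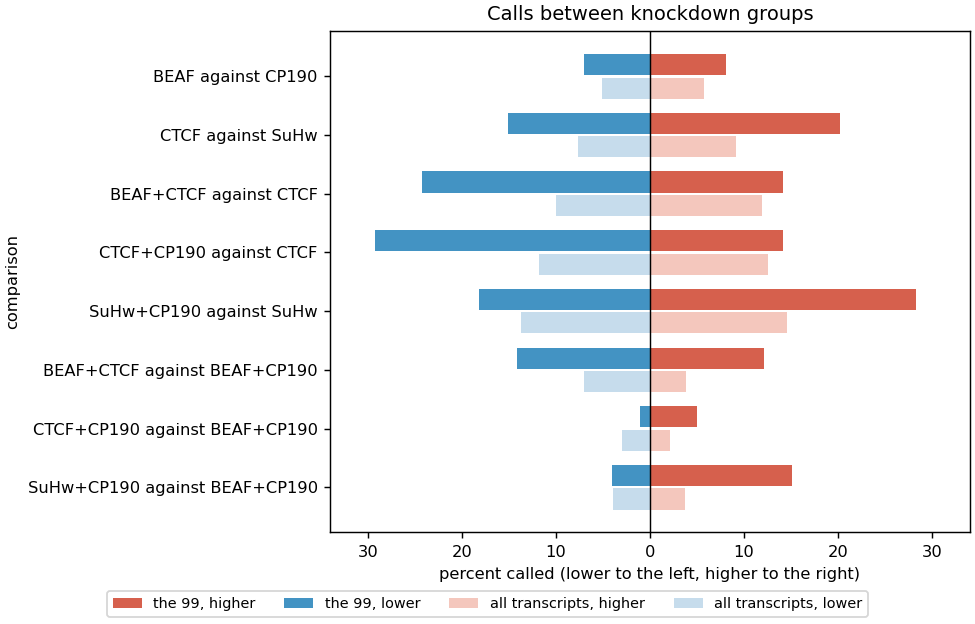
Percent of the 99 transcripts (dark bars) and of all 16637 transcripts (light bars) called higher (right) or lower (left) in the first-named group of each comparison, by limma with adjusted p under 0.05. The share of the 99 called ran from 6.06% in CTCF+CP190 against BEAF+CP190, near the 5.09% of all transcripts, to 46.5% in SuHw+CP190 against SuHw, where it was 28.4% of all transcripts.

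Both CP190 comparisons share no array, so the members' values can be set side by side. Across the 99, which are not independent replicates, the differences on the CTCF and SuHw backgrounds correlated at 0.772 (Pearson) and 0.757 (Spearman), and across all transcripts at 0.742 (Pearson). Called in both were 30 members: 16 lower in both, 13 higher in both and 1, FBtr0085990, higher on CTCF and lower on SuHw. Another 13 were lower on CTCF and not called on SuHw, 15 were higher on SuHw and 1 lower on SuHw and not called on CTCF, and 40 were called on neither. Among members called on both, the same direction was thus the common case. These joint calls were not counted over all transcripts, whose correlation was close to that of the 99. A shared direction can therefore not be called particular to the members. Each comparison also set a double against a single knockdown, so here adding CP190 and going from single to double cannot be told apart. BEAF+CTCF against CTCF and SuHw+CP190 against SuHw share no array and add different proteins. Those differences correlated at 0.525 (Pearson) over the 99 and at 0.435 over all transcripts.

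The size of the CP190 difference on CTCF against that on SuHw was tested as an interaction, added after the data were examined. It was called for 6 of the 99, 1 positive and 5 negative, where 1.93% of all transcripts were called (0.787% positive and 1.14% negative). FBtr0085682 fell by 1.46 on CTCF and had a difference of -0.29 on SuHw, an interaction of -1.17 (SE 0.14, limma with Benjamini-Hochberg, adjusted p = 0.00075). FBtr0100012 rose by 0.46 on CTCF and by 1.30 on SuHw (interaction -0.83, limma adjusted p = 0.006). FBtr0085990 had 5.54 and 5.48 in CTCF, 5.86 and 5.66 in CTCF+CP190, 5.90 and 5.97 in SuHw, and 5.60 and 5.62 in SuHw+CP190 (interaction 0.58, limma adjusted p = 0.0055). Of these 8 arrays the CTCF pair was the lowest and the SuHw pair the highest. Without CTCF replicate 2 the count was 3.

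**Figure D5:**
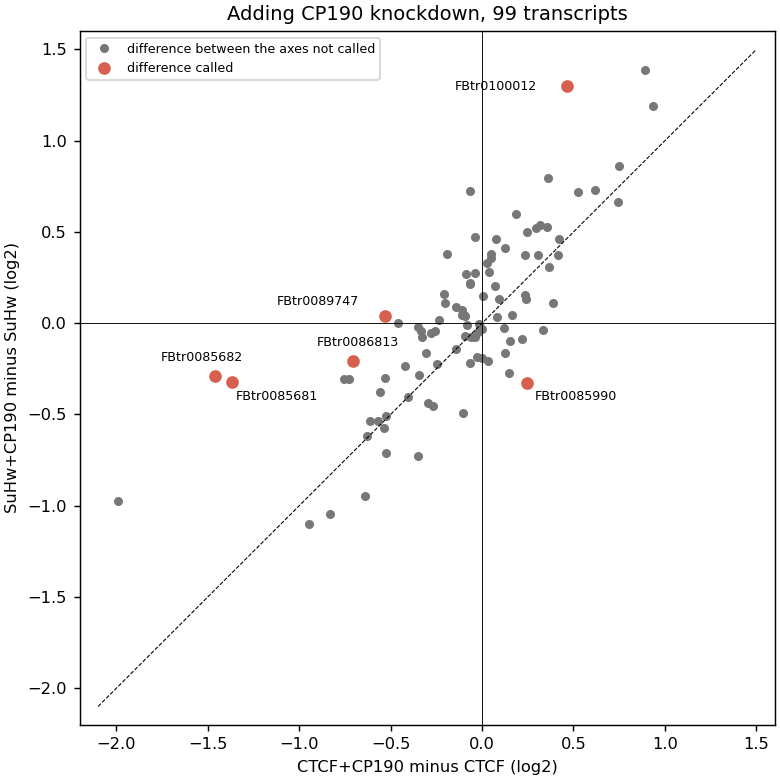
Log2 difference from adding CP190 knockdown to SuHw (vertical axis) against that from adding it to CTCF (horizontal axis) for the 99 transcripts, with the dashed line at equality. Red points are the 6 whose 2 differences were called unequal. FBtr0085681 and FBtr0085682 lie far to the left of the line, as does FBtr0085683, which was not called.

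BEAF+CP190 cells, which have no single knockdown in the second set, were compared with the other doubles. CTCF+CP190 cells gave the fewest calls, with 5 of the 99 higher and 1 lower, or 6.06%, where 5.09% of all transcripts were called (2.11% higher and 2.98% lower), a share near the background. FBtr0083330 was 2.61-fold higher in CTCF+CP190 (limma with Benjamini-Hochberg, adjusted p = 1.5e-06). FBtr0111137 was at 0.76 (limma adjusted p = 0.019) and FBtr0081546 at -0.52 (limma adjusted p = 0.023). These last 2 were not called when only arrays of the second set were fitted (limma adjusted p = 0.061 and 0.060) or only the 4 arrays compared (0.076 and 0.11). They were also not called without BEAF+CP190 replicate 2 (0.81 and -0.42), and FBtr0111137 was not called without BEAF+CP190 replicate 1 (0.71) or CTCF+CP190 replicate 2 (0.56). FBtr0081546 was not called without CTCF+CP190 replicate 1 (-0.39). Without any 1 of the 4 arrays, between 1 and 3 of the 99 were called.

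SuHw+CP190 cells had 15 of the 99 higher and 4 lower than BEAF+CP190 cells, or 19.2%, where 7.69% of all transcripts were called (3.72% higher and 3.97% lower). FBtr0100012 was 2.20-fold higher (limma with Benjamini-Hochberg, adjusted p = 5.1e-06). FBtr0083330 was higher by 1.89-fold (limma adjusted p = 2.8e-05), with both groups under the lower quartile of the table. FBtr0072197 was at -0.58 (limma adjusted p = 0.0062) and FBtr0088330 at -0.51 (limma adjusted p = 0.038). FBtr0088330 was not called when only arrays of the second set were fitted (limma adjusted p = 0.093), and neither was called with only the 4 arrays compared (limma adjusted p = 0.081 for FBtr0072197 and 0.23 for FBtr0088330). Without SuHw+CP190 replicate 1 both were not called (-0.42 and -0.28), and without BEAF+CP190 replicate 2 FBtr0088330 was not called (-0.37). Without either of those arrays the count of 19 was 11.

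BEAF+CTCF cells had 12 of the 99 higher and 14 lower than BEAF+CP190 cells, or 26.3%, where 10.8% of all transcripts were called (3.79% higher and 6.99% lower). FBtr0085682 was 1.86-fold higher with CTCF than with CP190 as the partner (limma with Benjamini-Hochberg, adjusted p = 6.4e-05) and FBtr0085683 1.95-fold (limma adjusted p = 0.021). FBtr0079661 was at -0.87 (limma adjusted p = 0.0011) and FBtr0083405 at -0.81 (limma adjusted p = 0.00011). FBtr0085683 was not called without BEAF+CP190 replicate 2 (0.83) or without BEAF+CTCF replicate 1 (1.06) or 2 (0.87). The count of 26 was 15, 16 and 16 without those 3 arrays.

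Over the whole second set, arrays with a given protein depleted were set against those without it, as a description added after the data were examined. Each side pools different knockdown groups, so an SD given here mixes differences between groups with the spread of replicates. Arrays with CP190 depleted (6) all lay above the other 6 for 5 of the 99 and all below for 5, where 4.66% and 4.43% of all transcripts did. FBtr0079661 had 7.74 ± 0.083 with CP190 depleted and 6.68 ± 0.30 without (SD, n = 6 each), and FBtr0083405 had 9.19 ± 0.21 and 8.22 ± 0.15. FBtr0085681, FBtr0085682 and FBtr0085683, with consecutive identifiers, were lower by 0.86 to 1.31 log2 units with CP190 depleted. The shares for CP190 were near those of all transcripts. In the second set CP190 was depleted only in doubles, and BEAF+CTCF was the only double without it. The CP190 split is therefore largely one of doubles against singles.

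Arrays with BEAF depleted (4) all lay above the other 8 for 7 of the 99 and below for 1, FBtr0083330, where 3.24% and 2.05% of all transcripts did. FBtr0083330 had 4.17 ± 0.18 with BEAF depleted (SD, n = 4) and 5.25 ± 0.36 without (SD, n = 8). Of those arrays only the ones of CTCF+CP190 lay above the lower quartile of the table. Of these 8 members FBtr0083330 alone was also called in BEAF against CP190, a comparison of first-set arrays that this count did not use. Arrays with CTCF depleted (6) lay above the other 6 for 1 member and below for 3, where 1.35% and 1.41% did. Arrays with SuHw depleted (4) lay above the other 8 for 5 and below for 4, where 2.20% and 2.24% did. In the second set BEAF, like CP190, was depleted only in doubles, so its split is not separate from doubles against singles. BEAF was never depleted together with SuHw, so the BEAF and SuHw splits are not separate.

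FBtr0087801 stood on both lists. It had 11.05 ± 0.24 in the 4 second-set arrays with BEAF depleted (SD) and 10.36 ± 0.39 in the 8 without. It had 10.07 ± 0.35 in the 4 with SuHw depleted and 10.84 ± 0.28 in the 8 without. Within the second set, BEAF+CTCF arrays (11.27 and 11.24) came nearest to control (12.18 and 12.05), and SuHw arrays (9.85 and 9.70) lay farthest. BEAF arrays of the first set, at 11.08 and 11.28, overlapped those of BEAF+CTCF. CP190 arrays of the first set, at 11.11 and 11.20, lay within the BEAF range, and this transcript was not called in BEAF against CP190.

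Some members may not be independent of each other. Of the 99, 19 carry an identifier next in number to that of another member, in 9 runs, while 92 have such a neighbour anywhere in the table. Whether neighbours in number come from the same gene or share probes is not given in the files. FBtr0089746 and FBtr0089747 differed by 0.083 to 0.23 log2 units in their distance from control over the 8 knockdown groups. FBtr0082572 and FBtr0082573 differed by as much as 0.39, and FBtr0110826 and FBtr0110827 by as much as 0.60.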

How the data were processed

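Cy3 signals were measured on NimbleGen arrays for 18 Kc cell samples. The authors deposited 1 table of log2 values per transcript; the submitters' processing notes name RMA and Partek, without versions and without saying whether all arrays were run together. Nothing was normalized or filtered again. A linear model of group means was fitted in limma 3.58.1 (R 4.3.3) to the 18 arrays at once, with 9 residual and 3.68 prior degrees of freedom, so that groups shared an estimate of spread. Tests were two-sided, and a call needs a Benjamini-Hochberg adjusted p under 0.05 over all 16637 transcripts of a comparison. The fit was tested on simulated data. The members, lists and comparisons were chosen with earlier results of these data known. Transcripts named are the 5 widest gaps, the edges of the rule, the 2 flattest and 2 most graded, and up to 2 each way per comparison. Other members named in the account of the second set and of identifier numbers were chosen after their values were seen. Gene lists fixed for insulator, RNA interference, ecdysone, heat shock, immune, cell cycle and cell type genes were not run, since no member was paired with a symbol. Precision is limited by having 2 arrays per group.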

Additional observations from a re-analysis of the deposited data

Results flagged for a closer look

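The difference made by adding CP190 knockdown was unequal on the CTCF and SuHw backgrounds for 6 of the 99 transcripts, by a limma interaction test with Benjamini-Hochberg adjustment over all transcripts. The interaction, the difference on CTCF minus that on SuHw, was -1.17 log2 units for FBtr0085682, -1.04 for FBtr0085681, -0.83 for FBtr0100012, -0.57 for FBtr0089747, -0.50 for FBtr0086813 and 0.58 for FBtr0085990. FBtr0089747 had a difference of -0.53 on CTCF and 0.042 on SuHw (limma adjusted p for the interaction = 0.038), and FBtr0086813 had -0.71 and -0.21 (limma adjusted p = 0.011). FBtr0085681 (limma adjusted p = 0.012) was not called without CTCF+CP190 replicate 2, CTCF replicate 2 or SuHw+CP190 replicate 2, at -1.01, -1.01 and -0.99. FBtr0085681 and FBtr0085682 have consecutive identifiers and may not be independent. The next in number, FBtr0085683, had an interaction of -1.01 (SE 0.34) and was not called (limma adjusted p = 0.198).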

How the results depend on the processing

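The list of 99 was 79 with quantile normalization (all among the 99), 85 with median centring (84 among them), 238 with a gap of 0.5, 28 with a gap of 1.0, 46 with set means within 0.5, 149 with no set condition and 171 when group means had to meet the gap. Restricting the fit to the 4 arrays compared gave 9 called in BEAF against CP190, 23 in CTCF against SuHw, 26 in SuHw+CP190 against SuHw, 50 in BEAF+CTCF against CTCF (16 higher and 34 lower), 45 in CTCF+CP190 against CTCF, 28 in BEAF+CTCF against BEAF+CP190, 1 in CTCF+CP190 against BEAF+CP190 and 12 in SuHw+CP190 against BEAF+CP190. Transcripts above the median signal hold 21 of the 99, and in the order of the report's comparisons 4 (BEAF against CP190), 11 (CTCF against SuHw), 11 (BEAF+CTCF against CTCF), 13 (CTCF+CP190 against CTCF), 10 (SuHw+CP190 against SuHw), 2, 6 and 11 (CTCF+CP190, SuHw+CP190 and BEAF+CTCF against BEAF+CP190) were called, with 2 for the interaction and 19 for the F test, since fewer members were tested. An alternative chosen after seeing the data kept the 65 members with every group mean above the lower quartile. Of these, 9 were called in BEAF against CP190, 25 in CTCF against SuHw and 24 in BEAF+CTCF against CTCF. In CTCF+CP190 against CTCF 33 were called, and in SuHw+CP190 against SuHw 33. Against BEAF+CP190, 21 were called in BEAF+CTCF, 3 in CTCF+CP190 and 11 in SuHw+CP190. Leaving out single arrays gave 8 to 27 in BEAF against CP190, 21 to 41 in CTCF against SuHw, 19 to 24 in BEAF+CTCF against CTCF, 27 to 31 in CTCF+CP190 against CTCF, 32 to 46 in SuHw+CP190 against SuHw, 15 to 21 in BEAF+CTCF against BEAF+CP190, 1 to 3 in CTCF+CP190 against BEAF+CP190, 11 to 15 in SuHw+CP190 against BEAF+CP190, 3 to 8 for the interaction, 68 to 77 for the F test and 94 to 136 members. A lone array left in a group is assumed to vary like the other groups. Fitting only arrays of the same set moved no count by over 1.5 times and, of the transcripts named, ended the calls of FBtr0111137, FBtr0081546 and FBtr0088330. Deviations of same-numbered replicates correlated above 0.1 in 0 of 3 pairs of groups of the first set, 8 of 15 of the second (-0.11 to 0.45) and 10 of 36 in all (-0.20 to 0.45). Not every pair did, so the number was not used as a pairing. With the replicate block, BEAF against CP190 had 18 called, CTCF+CP190 against CTCF 44 and the F test 74, and no count moved by over 1.5 times. No named transcript turned direction under any alternative run. The cause of these shifts was not tested where the alternative did not change the arrays or transcripts used.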
